A study of Mus musculus with 12 samples.

Results

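The cytosines described here lie in the shell of DNA 1 to 5 kb from the transcription starts of protein-coding genes. Members were autosomal CpG cytosines of mm9 whose nearest protein-coding start, in GENCODE release M1, was more than 1000 and at most 5000 bp away, and which had at least 10 reads in all 3 samples of a group. By this rule 44958 of 425574 cytosines, or 10.6%, were members in at least 1 group. The own set of each group held 7570 in DMSO, 14335 in DBP, 39815 in DBP plus chemopreventive agent and 26517 in DBP plus BR extract. A set of 4241 of the 37218 autosomal cytosines, or 11.4%, had 10 reads in all 12 samples, and it was used wherever samples were compared. Of these, 1301 lay upstream and 2940 downstream of the nearest start, 2894 at 1 to 3 kb and 1347 at 3 to 5 kb, and 1381 genes were the nearest gene of at least 1. Distances were taken to every annotated start of a gene, so a cytosine inside a gene can lie upstream of a later start of the same gene.

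DNA methylation was measured by enhanced reduced representation bisulfite sequencing (ERRBS) in oral tissue of female B6C3F1/J mice that entered the study at 8 weeks of age. DBP, the tobacco smoke carcinogen dibenzo[def,p]chrysene, was applied in the mouth over 5 weeks, with 3 doses of 24 nmol in each week, and tissue was taken 48 h after the final one. The 4 groups of 3 samples received the DMSO vehicle, DBP, DBP together with a chemopreventive agent whose name is not in the labels, or DBP together with BR extract, and the doses of the agent and the extract are not given in the sources used here. Buccal mucosa, floor of the mouth and soft tissue of the hard palate were pooled, so epithelium, muscle, vessels and blood cells cannot be told apart, and methylation does not allow the tissue to be checked by the expression of its markers. The labels do not say whether each sample came from 1 mouse, so where a p-value includes spread, it is that between these samples. Not every p-value below includes that spread, as stated with the tests.

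In mammals most CpGs are methylated, while the CpG islands that overlie many promoters are kept free of methylation. The flanks of islands, called shores, are where methylation passes from the low level of the promoter to the high level of the surrounding DNA. Genes of developmental transcription factors often have islands that extend well beyond the start, a feature linked to Polycomb proteins.

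Sequences of both ends of the range show what these cytosines look like. In each window below, read 5′ to 3′ on the plus strand of mm9, capitals mark the CpGs that had 10 reads in all 12 samples. Socs1, a feedback inhibitor of cytokine signalling, held the most cytosines of any gene in that shared set, and Rasip1, a Ras-interacting protein of endothelial cells, was among the least methylated genes.
Socs1, chr16:10784509-10784622, coding exon: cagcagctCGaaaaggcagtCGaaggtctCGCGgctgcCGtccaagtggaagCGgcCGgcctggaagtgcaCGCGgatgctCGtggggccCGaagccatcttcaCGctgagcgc
Rasip1, chr7:52884201-52884268, coding exon: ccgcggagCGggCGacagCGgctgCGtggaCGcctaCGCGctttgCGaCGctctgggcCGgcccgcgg
Arl6ip4, chr5:124571479-124571537, coding exon: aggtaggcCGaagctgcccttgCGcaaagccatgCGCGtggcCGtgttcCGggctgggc
Gm4825, chr15:85338136-85338202, between genes: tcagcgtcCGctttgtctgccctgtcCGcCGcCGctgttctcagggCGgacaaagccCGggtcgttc
The 12 marked CpGs of Socs1, 1016 to 1111 bp from its start, averaged 5.18% methylation, with samples between 2.502 and 9.03%. The 10 of Rasip1, 1314 to 1364 bp away, averaged 1.79%, with samples between 0 and 4.74%. The 6 of Arl6ip4, 4800 to 4841 bp away, averaged 94.0% (89.4 to 97.0%), and the 6 of Gm4825, 3048 to 3097 bp away, averaged 92.8% (84.6 to 98.9%). All 4 windows are rich in CpGs, and their methylation lay at opposite ends of the scale in every sample.

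The sequencing depth differed with the groups. The samples held 3287367 to 7974299 CpG calls in DMSO and DBP, but 16908728 to 39615620 in DBP plus chemopreventive agent and 17712547 to 78889043 in DBP plus BR extract. An effect of the agent or extract therefore cannot be told apart from one of depth. The labels used here do not name a sequencing run. At the 4241 shared cytosines the median number of reads was 16 to 33 in DMSO and DBP samples, 68 to 123 with the agent and 34 to 105 with the extract. The DBP plus BR extract sample with the most calls of all, sample 1, had a median of 34 reads there.

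Methylation 1 to 5 kb from starts stood between that of the promoters and that of distant DNA. The mean over the 4241 cytosines was 38.9 to 40.9% in the 12 samples, against 8.32 to 9.78% at the 19386 cytosines within 1 kb and 64.0 to 65.9% at the 13591 beyond 5 kb. None of the ranges overlapped. The shell was 30.9 ± 0.307 points (SD, n = 12) above the promoters and 24.9 ± 0.316 points below distant DNA, in 12 of 12 samples each. In an exact sign-flip permutation test over samples, two-sided, both had p = 0.000488, the smallest that 12 samples can give (adjusted p = 0.000507 over 27 such contrasts). All samples were read at the same cytosines, so here and below this p shows only that a difference recurred in the samples. It does not measure the spread between cytosines or genes. Few cytosines had the mean value: 43.1% of them were below 20% methylation, 31.2% between 20 and 80%, and 25.8% above 80%. Within 1 kb, 82.5% were below 20%, and beyond 5 kb 49.3% were above 80%.

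Methylation climbed with distance through the shell. It rose from each bin of 500 bp to the next up to 3 kb, by unequal steps, and went up and down further out. Downstream of starts it went from 20.5% at 1000 to 1500 bp (866 cytosines) through 28.0% at 1500 to 2000 bp to 43.5% at 2000 to 2500 bp. The next 3 bins of 500 bp were at 45.7, 53.6 and 49.8%, and the last ones, from 4000 to 5000 bp, at 60.6 and 56.7%. Upstream it went from 29.3% at 1000 to 1500 bp (349 cytosines) through 35.2% at 1500 to 2000 bp and 42.7% at 2000 to 2500 bp to 59.2% at 2500 to 3000 bp, and then lay between 49.5 and 57.3%. The inner limit fell on a smooth slope: in 250-bp bins, group means downstream were 15.2 to 16.03% just inside 1 kb and 16.6 to 17.4% just outside, and upstream they were 27.5 to 28.3% and 27.5 to 28.7%. At 5 kb the bins were small and uneven, with 62.3 to 63.7% just below 5 kb and 49.5 to 50.5% just above it downstream.

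**Figure D1:**
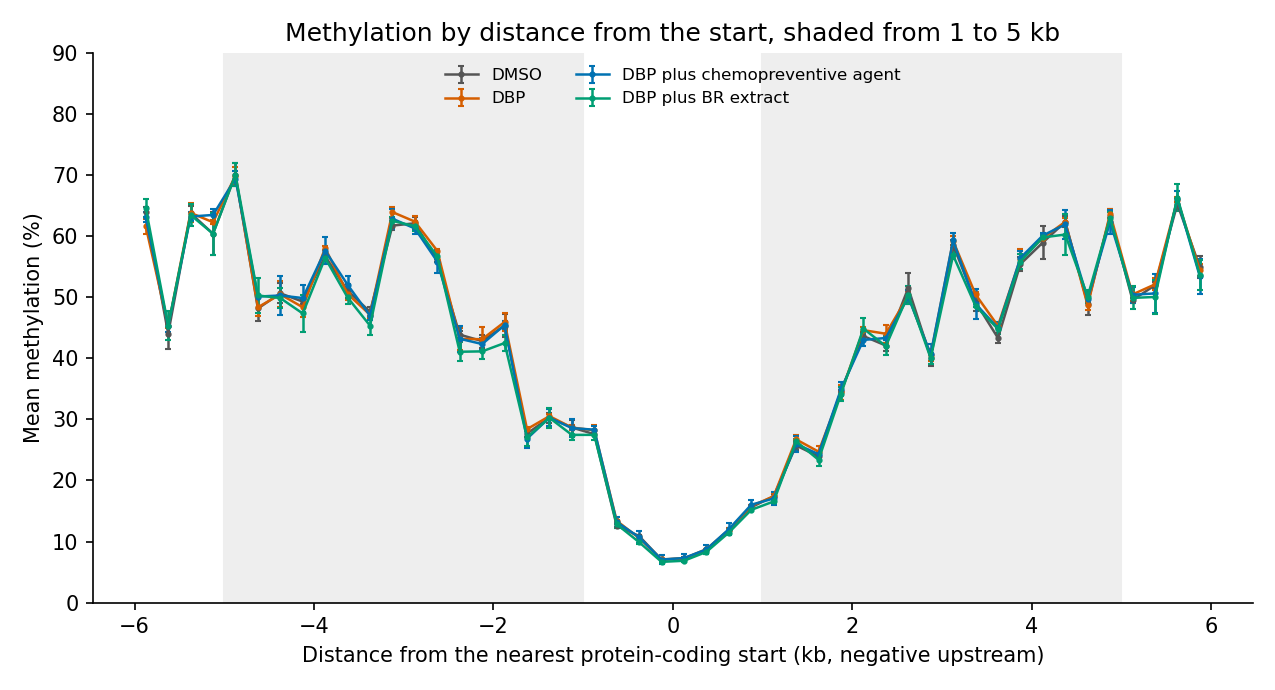
Mean methylation (%, y axis) of cytosines with 10 reads in all 12 samples in 250-bp bins of distance from the nearest protein-coding start (kb, x axis, negative upstream), with 1 line per group, bars for the SD of 3 samples and grey for 1 to 5 kb. The 4 lines lie close together, with group means from 42.5 to 45.9% at 1750 to 2000 bp upstream. Downstream they rise unevenly, from 16.6 to 17.4% at 1000 to 1250 bp to 62.3 to 63.7% at 4750 to 5000 bp. The bin at 4500 to 4750 bp is at 48.7 to 50.1%.

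Across all cytosines the far cytosines, at 3 to 5 kb, averaged 54.3% and the near ones, at 1 to 3 kb, 32.8%. The far set was higher by 21.5 ± 0.395 points (SD) in 12 of 12 samples (exact sign-flip permutation p = 0.000488). The share of cytosines above 80% methylation was 41.2% in the far set and 18.6% in the near set.

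Upstream cytosines were more methylated than downstream ones, 44.1 against 37.7%, a difference of 6.42 ± 0.365 points in 12 of 12 samples (exact sign-flip permutation p = 0.000488). This order depended on distance and sequence. Here a cytosine is called CpG-dense where the DNA from 100 bp before to 100 bp after it has over 50% G and C and an observed to expected CpG ratio over 0.6. CpG-dense cytosines made up 36.4% of the upstream and 49.1% of the downstream cytosines. Among CpG-dense cytosines alone upstream minus downstream was -0.922 points, below 0 in 12 of 12 samples, and among the others it was 1.75 points, above 0 in 12 of 12. At 3 to 5 kb the upstream side was lower by 7.18 points in CpG-dense DNA and by 5.62 points elsewhere, in 12 of 12 samples each. At 1 to 3 kb it was higher by 0.728 points in CpG-dense DNA, in 10 of 12 samples (exact sign-flip permutation p = 0.00830), and by 5.52 points elsewhere, in 12 of 12.

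CpG density parted the cytosines of the shell by more points than distance, near against far, did. The 1916 CpG-dense cytosines averaged 14.9% and the 2325 others 60.1%, a difference of 45.2 points, in 12 of 12 samples. With 1 to 4 CpGs in that window the mean was 70.6%, with 9 to 12 it was 40.4%, with 13 to 16 it was 16.7%, and with 21 or more it was 5.59%. The far set stayed above the near set in both classes, by 14.5 points in CpG-dense DNA and by 14.2 points elsewhere (12 of 12 samples, exact sign-flip permutation p = 0.000488 for each). The gap between near and far was widest at 13 to 16 and 9 to 12 CpGs, where near cytosines averaged 12.3 and 33.9% and far ones 33.1 and 54.4%, and narrowest at 21 or more, with 4.58 and 9.09%. CpG-dense cytosines of the shell, taken alone, were 9.52 points above those within 1 kb and 19.15 points below those beyond 5 kb, again in 12 of 12 samples.

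**Figure D2:**
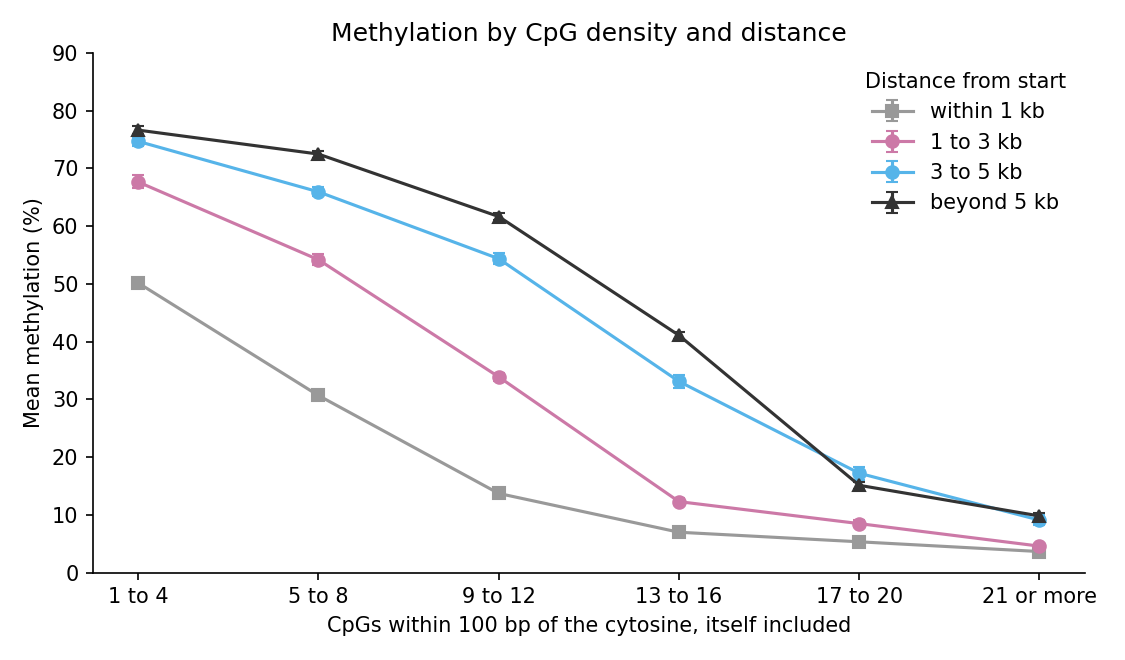
Mean methylation (%, y axis; mean over the 12 samples, bars for their SD) by the number of CpGs within 100 bp of the cytosine (x axis) for 4 ranges of distance. At 9 to 12 CpGs the ranges are ordered by distance, with 13.7% within 1 kb, 33.9% at 1 to 3 kb, 54.4% at 3 to 5 kb and 61.7% beyond 5 kb.

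The annotation added a further layer. Downstream, 1481 cytosines lay in coding exons and averaged 38.2%, and 1131 lay in introns and averaged 36.5%, a small difference of 1.68 points. At like density the exons were clearly higher, by 7.59 points in CpG-dense DNA (17.7 against 10.1%) and by 18.6 points elsewhere (69.5 against 50.9%), in 12 of 12 samples each. Of the downstream coding-exon cytosines 60.6% were CpG-dense, against 35.4% of the intronic ones. Upstream, the 705 cytosines between genes averaged 37.6%, the 295 in introns 49.4% and the 201 in coding exons 58.5%. The 253 members within 1 kb of the start of a noncoding gene averaged 23.9%, 16.8 points below the rest, in 12 of 12 samples (exact sign-flip permutation p = 0.000488). Outside CpG-dense DNA that gap was 20.8 points, and within it 3.06 points.

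No test separated the means of the 4 groups. Sample means were 40.0, 39.6 and 39.3% for DMSO, 40.6, 39.8 and 39.8% for DBP, 40.9, 39.3 and 39.0% for DBP plus chemopreventive agent, and 39.6, 38.9 and 39.3% for DBP plus BR extract. The group means ± SD were 39.6 ± 0.334, 40.1 ± 0.437, 39.7 ± 1.01 and 39.3 ± 0.361% (n = 3 each), and an exact permutation test of the 4 groups gave p = 0.453. DBP was 0.454 points above DMSO, with overlapping samples (exact permutation p = 0.3, adjusted p = 0.6 over 6 pairs). DBP plus chemopreventive agent was 0.378 points below DBP (exact permutation p = 0.6). DBP plus BR extract was 0.825 points below DBP with no overlap of the samples, and here the exact permutation p was 0.1, the smallest that 3 against 3 can give (adjusted p = 0.6). Both of the last comparisons use the same DBP samples.

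**Figure D3:**
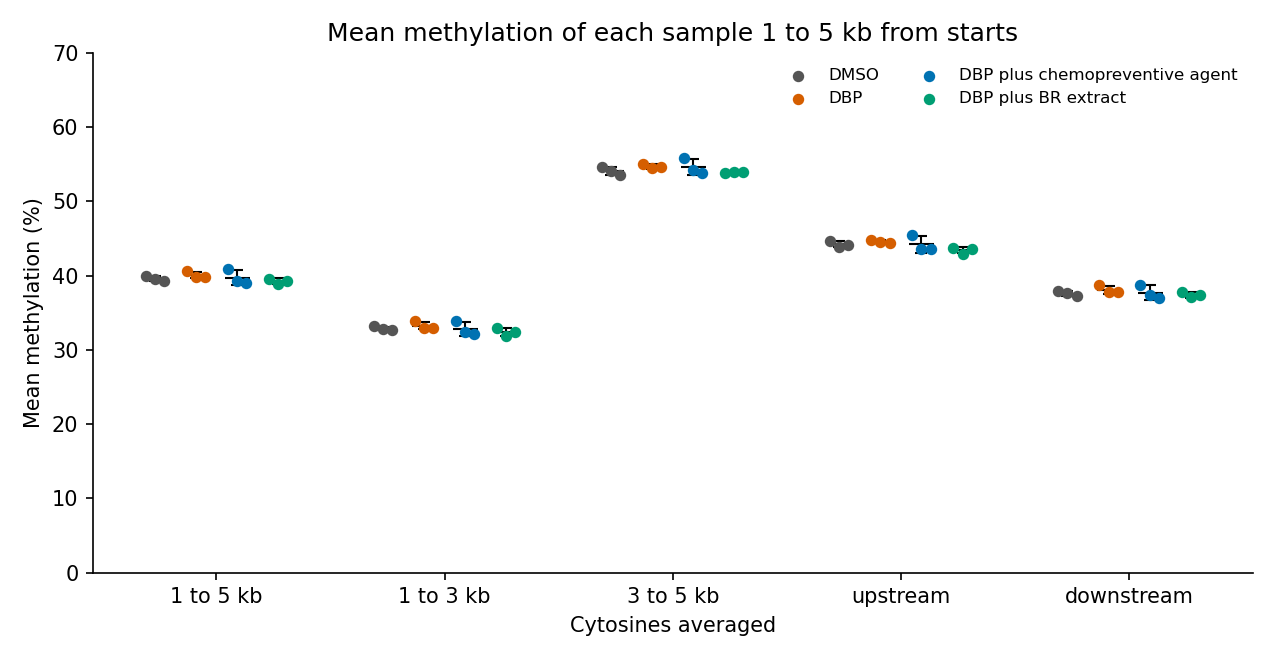
Mean methylation (%, y axis) of each sample over all shared cytosines 1 to 5 kb from starts and over the near, far, upstream and downstream ones (x axis), with points for samples, coloured by group, and bars for the group mean and SD of 3 samples. The DBP samples lie above those with the extract, without overlap, over all, far and upstream cytosines, the DMSO samples do so over upstream ones, and every other pair of groups overlaps in each set, while near and far sets are apart by 20.8 to 22.1 points in every sample.

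No difference between groups in the shape of the profile passed a test after adjustment either. The far minus near difference averaged 21.2 points in DMSO, 21.5 in DBP, 21.8 with the agent and 21.5 with the extract (exact permutation p = 0.353), and the upstream minus downstream difference 6.67, 6.46, 6.51 and 6.02 points (exact permutation p = 0.164). Of 12 such measures compared across the groups the smallest exact permutation p was 0.158, for the share of cytosines below 20% methylation, which was 44.2, 44.0, 45.0 and 45.9% (adjusted p = 0.633). In single bins of 500 bp the smallest exact permutation p were 0.0368 and 0.0374, upstream at 1500 to 2000 and 2000 to 2500 bp. The extract group was the lowest in both, and the adjusted p was 0.299 for each. At single cytosines the 12 samples spread by a median SD of 7.44 points, and by 13.2 points at the 1322 cytosines with a mean of 20 to 80%. The own sets of the groups, which differ in size and membership, gave 42.6, 39.4, 42.9 and 41.8%. These are not comparable between groups, since 48.0% of the DBP set but 42.1 to 43.3% of the other sets was CpG-dense.

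The shell of a gene often differed from its promoter. Of 139 genes with at least 3 shared cytosines both within 1 kb and at 1 to 5 kb, 116 had a promoter mean below 20%. In 62 of these the shell was below 20% too, in 27 it was from 20 to 80%, and in 27 it was above 80%. Arl6ip4 was of the last kind, with 3.63% over 7 cytosines within 1 kb and 92.4 ± 3.47% (SD, n = 12) over 10 cytosines at 4618 to 4841 bp. Socs1 was of the first, with 0.0248% over 8 promoter cytosines and 5.71 ± 1.59% over 21 at 1016 to 1261 bp. Among the 10 genes with a promoter above 50%, 4 had a shell below 20% and 4 above 50%.

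By gene, 590 had at least 3 shared cytosines, with a median of 20.8%, and 292 of them (49.5%) were below 20% and 146 (24.7%) above 80%. Among the lowest of the 56 genes with at least 10 cytosines were AB041803 and Rasip1, at 1.39 ± 0.817 and 1.79 ± 1.51%. The highest were Arl6ip4, Gm4825 at 89.8 ± 3.35% and Myo15, a motor protein of inner-ear hair cells, at 82.0 ± 2.52%. No sample of these low genes was above 4.74% and none of the 3 high genes below 77.6%. Myo15b, with 18 cytosines, was among the genes with the most, at 19.8 ± 1.73%. Within Myo15b a run of 8 CpGs at 2009 to 2058 bp averaged 4.09%.

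Genes of patterning transcription factors mostly had low methylation in the shell. The list held 173 such genes, 63 had a shared member and 47 had at least 3. The median of the 47 was 8.66%, against 20.8% over all 590 genes, and 42 (89.4%) were below 20% and 0 above 80%. The lowest were Sox21, a neural SOX factor, at 0.331 ± 0.794%, and Foxd1, a forkhead factor of kidney stroma and retina, at 2.27 ± 6.09%. Of the 12 samples 11 had a Foxd1 mean of at most 2.21% and DBP plus BR extract sample 1 had 21.5%. The highest were Six2 at 33.7 ± 6.26% and Pitx1, a factor of the jaw and hindlimb, at 34.3 ± 9.74%. In both the 1 near cytosine, at 63.3 and 44.0%, was above the mean of the 2 far ones.

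The 352 cytosines of these genes did not follow the climb with distance. They averaged 11.6% at 1 to 3 kb and 11.5% at 3 to 5 kb, while the 3889 cytosines of other genes averaged 34.5 and 59.3%. Their windows held more CpGs (a median of 15 per gene against 10), but at like density the difference was also seen below 17 CpGs. With 1 to 8 CpGs in the window, 63 cytosines of the list averaged 21.1% (samples 18.6 to 23.4%) and 1852 others 65.2% (64.0 to 66.5%). With 9 to 16 CpGs the means were 12.1 and 32.2%. With 17 or more, the class of 160 of the 352 cytosines, they were close, at 7.36 and 7.69%. There the list was higher at 1 to 3 kb (8.13 against 6.06%) and lower at 3 to 5 kb (5.67 against 14.4%). The only 2 genes with at least 5 near and 5 far cytosines were also on this list, and in both the far set was the lower one. In Tbx2, a T-box repressor, the near set averaged 31.1% and the far set 11.4%, and in Nr2f2, an orphan nuclear receptor, they averaged 36.02 and 13.2%.

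**Figure D4:**
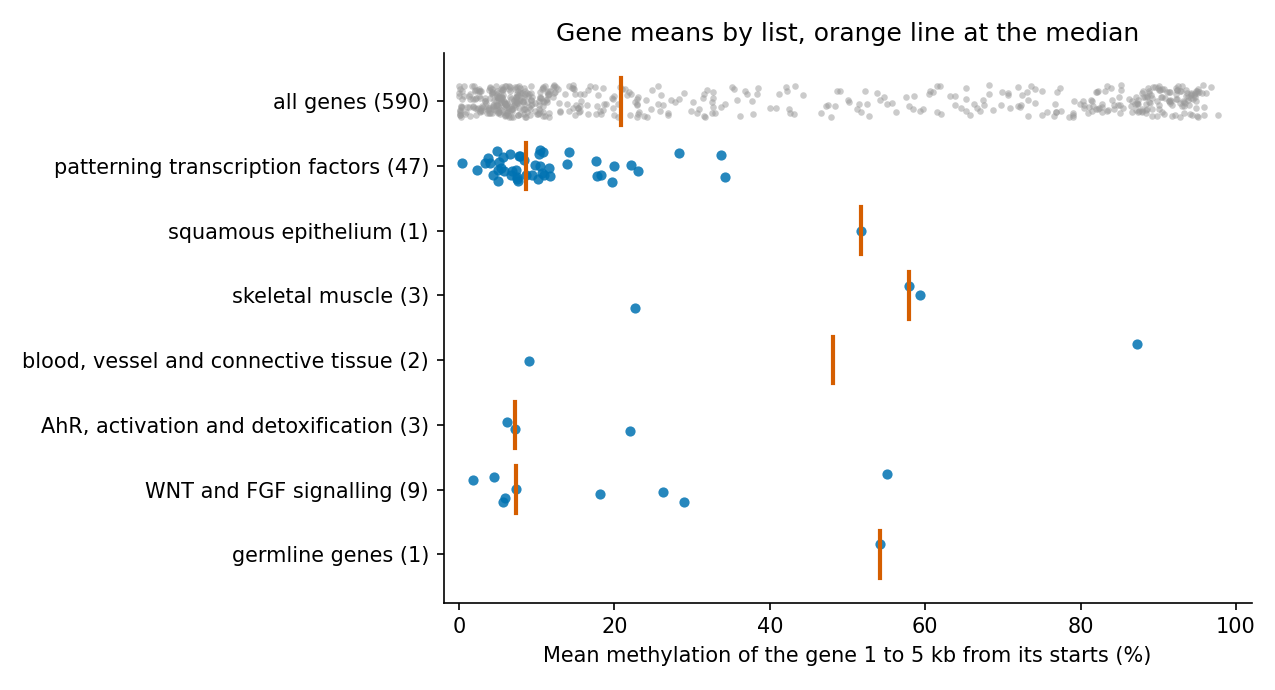
Mean methylation (%, x axis) of each gene with at least 3 shared cytosines 1 to 5 kb from its starts, for all 590 genes and for 7 gene lists (y axis, number of genes in brackets), with 1 point per gene and an orange line at the median. The 47 patterning genes gather below 20% with a median of 8.66%, and all genes spread from 0 to 97.6%.

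Few WNT and FGF genes were measured in the shell. Of 96 listed, 17 had a shared member and 9 had at least 3, with a median of 7.31%, and 6 of the 9 (66.7%) were below 20%, against 49.5% of all genes. Of these 9 genes 8 (88.9%) had near cytosines only, against 63.4% of all genes. Fzd7, a WNT receptor, was at 1.83 ± 2.58%, and Lef1, the nuclear partner of beta-catenin, at 4.47 ± 2.49% over 12 cytosines. Etv4, an ETS factor downstream of FGF, was at 29.0 ± 5.95%, and Spry4, an inhibitor of FGF receptor signalling, at 55.1 ± 12.5%. In the larger own set of DBP plus chemopreventive agent, where 3934 genes had at least 3 cytosines and a median of 61.8%, the 45 WNT and FGF genes had a median of 24.3% and the 141 patterning genes 13.4%. Of the patterning genes 106 were below 20% there and 35 from 20 to 80%, the highest being Twist2 at 61.3 ± 1.26% (n = 3) and Gata5 at 74.1 ± 4.98%. That set shifts toward cytosines in CpG-poor DNA, and in the own set of each group the median of the patterning list lay below that of all genes.

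The other lists had too few genes for a summary in the shared set. Among genes of carcinogen activation and detoxification 3 of 65 had at least 3 cytosines. Gclc, which catalyses the first step of glutathione synthesis, was at 6.20 ± 3.20%, Gstt2, a glutathione transferase, at 7.21 ± 4.89%, and Aldh3a1, an aldehyde dehydrogenase, at 21.96 ± 10.2%. Of the skeletal muscle genes Mybpc2 was at 22.6 ± 2.56% and Mylpf, the regulatory light chain of fast fibres, at 59.4 ± 11.03%. Rab25, a small GTPase of epithelial cells, was at 51.7 ± 18.2%, Dppa3, a germ cell protein, at 54.2 ± 14.3%, Sox18, a factor of the endothelium, at 9.04 ± 3.79%, and Csf1r, the receptor of the macrophage growth factor, at 87.3 ± 7.05%. Single samples of Rab25 ran from 13.6 to 82.7% and those of Csf1r from 72 to 100%.

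In the DBP plus chemopreventive agent set 26 squamous epithelium genes had a median of 56.3% and 21 muscle genes 51.3%, beside the 61.8% of all genes. Within the squamous list Cldn7, a claudin, was at 4.67 ± 3.71% (n = 3) and Lor, the loricrin of the cornified envelope, at 6.46 ± 3.71%, but Tgm1, which cross-links that envelope, was at 87.9 ± 9.09% and Klf5 at 94.8 ± 3.99%. The 15 genes of carcinogen activation and detoxification had a median of 58.7%, and 3 of them were below 20%. Cyp1b1, the enzyme that activates DBP, was at 10.1 ± 2.46% over 19 cytosines and Cyp1a1 at 20.4 ± 2.57% over 6. The highest of that list were Gstm1, a glutathione transferase, at 94.9 ± 4.48% and Ercc2, a DNA repair helicase, at 96.8 ± 2.18%. The 7 germline genes with at least 3 cytosines had a median of 87.3%. The genes named from this set were chosen after their values were seen.

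Single CpGs were then compared between groups by the likelihood ratio test of a logistic regression, after coverage had been scaled to equal medians. The methods of the study state that coverage was normalized, and the use of medians was chosen here. A CpG was called at a Benjamini-Hochberg q under 0.01 over the genome and a difference of pooled percentages over 10 points. Between DBP and DMSO 8 of 6089 CpGs at 1 to 5 kb were called, or 0.131%, against 0.110% of all 53618 CpGs tested. Which group was higher at a CpG rests on the sample titles. The total of methylated calls in each DMSO and DBP sample equals the one the study lists for that group and number. These totals tie the titles to the labels of the study and do not show how a sample was treated. In DMSO sample 1 32.9% of the deposited calls were methylated, which is not the share that the study lists for it. The shares of the other DMSO and DBP samples equal the listed ones after rounding. The cause of that mismatch was not tested. Of the called CpGs 4 were higher and 4 lower in DBP, against 0.0466 and 0.0634% of all CpGs. With unscaled reads 5 of these were called, against 0.0466% of all CpGs. The test counts reads and leaves out the spread between samples. In edgeR's negative binomial model, which includes it, 0 of the 6089 were called, and 410 (6.73%) had an unadjusted p under 0.05, against 5.44% of all CpGs. At 386 of the 6089 (6.34%) the samples of both groups did not overlap, against 5.51% of all CpGs.

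The 5 CpGs with the smallest p, for which 2 sequences are given with the CpG in capitals, were read as follows.
Tln1, chr4:43556351-43556412, coding exon: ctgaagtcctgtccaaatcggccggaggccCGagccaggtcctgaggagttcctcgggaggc
Qrich2, chr11:116317952-116318013, between genes: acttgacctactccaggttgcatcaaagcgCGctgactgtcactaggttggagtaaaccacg
The Tln1 CpG, 4138 bp into the gene of talin, which ties integrins to actin, was methylated on every read in the DMSO samples (22, 25 and 23 reads). In the DBP samples it was at 71.2, 83.3 and 83.3%, with the agent at 100, 98.9 and 85.5%, and with the extract at 100% in all 3 (10, 37 and 33 reads). DBP was 24.1 points lower (q = 0.000776 by logistic regression), with no overlap, while edgeR's adjusted p was 0.236. Without DBP sample 1 it was 15.6 points lower and no longer called, and it was also not called without DMSO sample 3. The Qrich2 CpG, 1431 bp upstream of a gene of the sperm tail, was read at 42.9, 33.3 and 68.8% for the DMSO samples, against 86.7, 72 and 100% for the DBP samples, the 100% on 10 reads. DBP was 36.8 points higher (q = 0.00412 by logistic regression, edgeR's adjusted p = 0.421). The call was lost without DMSO sample 1 or 2 or DBP sample 1 or 3.

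The Npdc1 CpG lay 3553 bp upstream of its start, in a coding exon of the neighbouring Entpd2, an ectonucleotidase. It was at 42, 33.3 and 56.2% in DMSO and 87.8, 70.2 and 67.6% in DBP, 32.8 points higher in DBP (q = 0.000462 by logistic regression, edgeR's adjusted p = 0.421). The Kcna7 CpG, in a coding exon of a potassium channel, was at 100% in all DMSO samples and at 85.4, 78.8 and 89.7% in DBP, 14.5 points lower in DBP (q = 0.00608 by logistic regression, edgeR's adjusted p = 0.236). At Ppp1r13l, an inhibitor of p53, the samples overlapped: DMSO was at 65.8, 72.4 and 22.2% and DBP at 10.3, 7.14 and 40%, 43.3 points lower in DBP (q = 0.000776 by logistic regression, edgeR's adjusted p = 0.421). The samples of the other 4 CpGs did not overlap. The remaining calls lay nearest to Dos, Ttc9b and Cenpt, had differences of 27.8, -47.8 and 37.1 points, and were not called with unscaled reads. In the list of sites that the study reported, differences of the same size at Npdc1, Ppp1r13l, Qrich2, Ttc9b and Cenpt have the opposite sign. A difference of the same size as that at Dos is listed there under Cbarp, also with the opposite sign. Why the signs differ was not tested. The Npdc1 call was lost without DMSO sample 2 or DBP sample 1, and the Ppp1r13l call without DMSO sample 1 or 2 or DBP sample 1. The Kcna7 CpG was called in 1 of the 6 fits that left out a sample, the one without DBP sample 3.

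**Figure D5:**
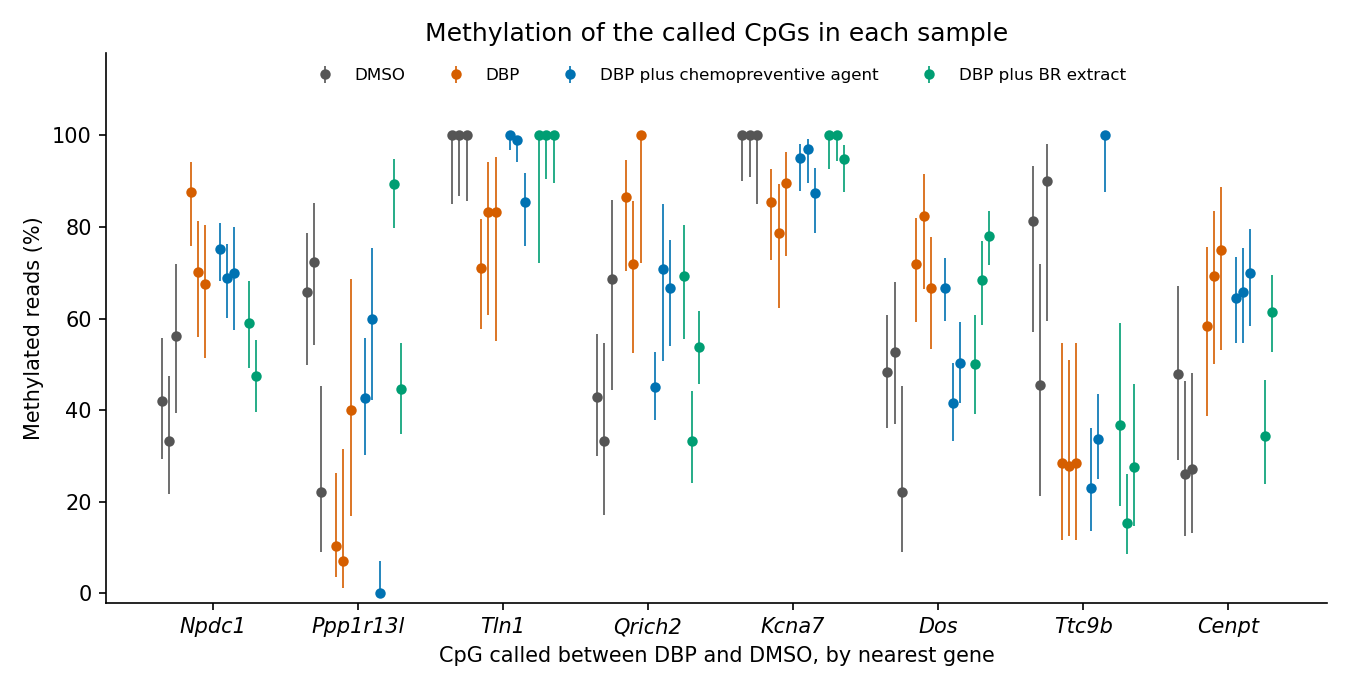
Methylated reads (%, y axis) in each sample at the 8 CpGs called between DBP and DMSO, named by their nearest gene (x axis), with points for samples coloured by group and bars for the 95% Wilson interval, which covers counting error only; values on fewer than 10 reads are left out. At Tln1 and Kcna7 the DMSO samples are all at 100% and the DBP samples between 71.2 and 89.7%.

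The tested neighbours of the called CpGs differed by fewer points than the called CpGs themselves, some of them in the same direction. The called CpGs had been chosen for large differences and the neighbours had not, so smaller values there say nothing about the calls. Within 100 bp of the Npdc1 CpG the only tested neighbour, 26 bp away, differed by -0.444 points, and the neighbours of the Tln1 CpG by -2.47 and 6.11 points. The Ppp1r13l CpG had 5 tested neighbours with differences from -25.3 to 1.92 points, and the Qrich2 CpG had 3, all higher in DBP, from 12.0 to 25.3 points. The Dos CpG had 7, with differences from -0.869 to 17.3 points. None of these neighbours was called.

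Many more CpGs were called in the comparisons with the deeper groups, which both use the DBP samples as reference. For DBP plus chemopreventive agent against DBP 1010 of 13731 CpGs at 1 to 5 kb were called (7.36%), against 5.43% of 127381 CpGs in all. Of these 503 were higher and 507 lower with the agent, 3.66 and 3.69% of the tested CpGs against 2.91 and 2.51% in all. For DBP plus BR extract against DBP 1269 of 11357 were called (11.2%), against 8.61% of 104443, with 523 (4.61%) higher and 746 (6.57%) lower against 3.66 and 4.95% in all. Scaling had multiplied the DBP reads by 1.94 and 2.56. With unscaled reads the counts were 255 (1.86%, against 1.18% of all) and 290 (2.55%, against 1.84%). In edgeR's negative binomial model 0 were called in either comparison, against 0.00236 and 0.000957% of all CpGs, and 942 (6.86%) and 905 (7.97%) had an unadjusted p under 0.05, against 5.23 and 5.81% of all CpGs.

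The share of called CpGs was lower within 1 kb than in the shell in both comparisons. It was 2.92% within 1 kb, 7.36% at 1 to 5 kb and 8.53% beyond 5 kb for the agent, and 4.56, 11.2 and 14.1% for the extract. With unscaled reads it was 0.638, 1.86 and 1.73% for the agent, so that the shell and distant DNA changed order, and 0.918, 2.55 and 2.99% for the extract. Among CpGs with a pooled level of 20 to 80% the shares were 12.1, 12.7 and 11.8% for the agent and 19.2, 20.2 and 22.5% for the extract. Upstream and downstream CpGs of the shell were called in 7.46 and 7.31% for the agent and in 11.7 and 10.95% for the extract, and with unscaled reads in 1.79 and 1.89%, the other order, and in 2.73 and 2.48%.

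The CpGs with the smallest p showed how far single samples went. For the agent, the CpG 1461 bp into Matn1, a cartilage matrix protein, was at 42.9, 79.3 and 78.9% in DBP and 96.3, 100 and 100% with the agent (edgeR's adjusted p = 0.0979). Its difference was 30.1 points, and 19.5 points without DBP sample 1. A CpG in an intron of Sfpi1, the myeloid factor PU.1, was at 90.6, 70.6 and 90% in DBP and 56, 26.6 and 55.8% with the agent (edgeR's adjusted p = 0.385 for the agent). It was at 100% in all 3 extract samples, on 10, 15 and 19 reads, and at 72, 71.4 and 50% in DMSO. The CpG 1439 bp upstream of Tbx18 was at 51.9, 63.3 and 42.9% in DBP and 31.2, 21.4 and 3.28% with the agent. At all 3 the DBP and agent samples did not overlap. A further CpG named by this rule, nearest to Dos, was lower with the agent by 34.2 points.

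For the extract, the CpG in a coding exon of Nr4a2, an orphan nuclear receptor, was at 16.7, 18.8 and 3.85% in DBP and 49.1, 82.1 and 53.6% with the extract, and the DMSO samples were at 34.5, 34.8 and 31.2%. It was called 44.7 points higher, and its 3 tested neighbours within 100 bp were higher by 18.4 to 21.8 points (edgeR's adjusted p = 0.153 for the called CpG). The CpG 4286 bp downstream of the start of Id1, an inhibitor of helix-loop-helix factors, was at 76.3, 43.8 and 75.5% in DBP and 0, 32.7 and 37% with the extract, the 0 on 10 reads. The Hipk4 CpG was at 100% in the 9 samples of the other groups and at 92.6, 66.7 and 93.5% with the extract. Without extract sample 2 its difference was -7.05 points and it was no longer called. The other CpGs of these 5 were 42.8 points higher at Gp1bb, where the CpG is in an intron of Sept5, and 34.7 points lower at Mtap7d1, where the samples of both groups overlapped and 1 extract sample was at 1.09%. The difference at Mtap7d1 was -14.5 points without extract sample 2 and -62.9 points without extract sample 3.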

How the data were processed

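ERRBS reads from 12 samples had been trimmed with Trim Galore 0.3.3, mapped to mm9 and called with Bismark 0.10.1. The authors deposited, per CpG cytosine and strand, raw counts of methylated and unmethylated reads, and the percent methylated, which matched those counts throughout and was left aside. All listed positions were CpGs of mm9. Samples were grouped by their titles.

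Methylation levels were means over cytosines with 10 or more reads, each counted equally, computed with NumPy 2.4.6, SciPy 1.17.1 and pandas 2.3.3 (Python 3.11.15). Starts were the 5′ ends of 45974 protein-coding transcripts. Sets of cytosines were compared within samples by exact sign-flip tests and groups by exact permutation tests, two-sided, with Benjamini-Hochberg adjustment. For single CpGs, cytosines over the 99.9th percentile of coverage were removed, coverage was scaled, strands were merged, and a logistic likelihood ratio test was run; edgeR 4.0.16 (R 4.3.3) was an alternative. Both were tested on simulated reads without spread between samples beyond counting error. That test cannot show how either deals with such spread. PCR duplicates cannot be seen, so intervals cover counting error only. Replicate numbers were not used to pair samples in the main tests. Named were the 5 called CpGs with the smallest p per comparison, the 2 lowest and 2 highest genes per list, and among genes with 10 cytosines the 3 lowest, the 3 highest and the 3 with most cytosines, besides genes with 5 near and 5 far cytosines. A few that this rule names are not reported here. Members and lists were chosen with earlier results of these data known.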

Additional observations from a re-analysis of the deposited data

How the results depend on the processing

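The contrasts between sets of cytosines (shell against promoters and distant DNA, upstream against downstream, far against near) kept their direction and their exact sign-flip permutation p = 0.000488 under all 7 other settings of reads, starts, weighting and strands, and leaving out any 1 sample changed no call. The differences ranged from 23.2 to 39.6, -30.4 to -15.2, 4.08 to 14.8 and 14.7 to 21.7 points. DBP plus chemopreventive agent minus DBP was 0.000912 points with a minimum of 5 reads, with the opposite sign, and -1.77 points with reads pooled. Leaving out 1 sample, it ranged from -0.952 to -0.0233 points, DBP minus DMSO from 0.175 to 0.647 and DBP plus BR extract minus DBP from -0.928 to -0.573, with no exact permutation p under 0.1. The far minus near difference varied across groups (exact permutation p = 0.0172, a range of 1.07 points) when reads were pooled over cytosines. Under the other settings its exact permutation p ran from 0.0702, with the starts of all transcripts, to 0.722.

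Counts of called CpGs depended on the settings, and brackets give the share of the tested shell CpGs against that of all CpGs. For DBP against DMSO the 8 calls became 48 at q under 0.05 (0.788 against 0.582%), 13 with the starts of all transcripts (0.184 against 0.110%), 5 with unscaled reads (0.0821 against 0.0466%), and 1 to 18 when 1 sample was left out: 18 without DMSO sample 1 (0.288 against 0.228%), 14 without DBP sample 2 (0.220 against 0.142%), 4 without DMSO sample 3 (0.0438 against 0.0430%) and 1 without DBP sample 1 (0.0152 against 0.0345%). For the agent the 1010 calls became 1606 at q under 0.05 (11.7 against 8.59%), 144 above 25 points (1.05 against 0.754%), 255 with unscaled reads (1.86 against 1.18%), 2189 at 5 reads (7.82 against 5.67%) and 296 at 20 reads (6.54 against 4.77%). For the extract the 1269 became 148 above 25 points (1.30 against 0.992%), 290 with unscaled reads (2.55 against 1.84%), 2114 at 5 reads (8.85 against 6.64%) and 344 at 20 reads (10.3 against 7.67%). In edgeR and in an F test with overdispersion per CpG there were 0 calls in all 3; at an unadjusted p under 0.05 the F test had 97, 555 and 636 (1.59, 4.04 and 5.60%, against 1.31, 3.08 and 4.24% of all CpGs). With a block for the replicate number on unscaled reads, a setting added after the data were seen, there were 317 calls for the agent (2.31 against 1.44%) and 288 for the extract (2.54 against 1.79%). With scaled reads the block moved no count by over 1.5 times (10 calls for DBP against DMSO). Across cytosines same-numbered samples did not deviate together, with correlations from -0.0363 to 0.0292. In the shell means, though, sample 1 was the highest of its group in every group. It was at 40.0% in DMSO, 40.6% in DBP, 40.9% with the agent and 39.6% with the extract. Permuting only within replicate numbers, the test of the 4 group means gave exact permutation p = 0.179, against 0.453 without. Whether the numbers pair samples is not settled. The cause of the changes in counts was not tested. Depth limits the DMSO and DBP samples most, with a median of 16 to 33 reads per cytosine.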

Other observations

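Over the 4241 shared cytosines the 66 pairs of samples had Pearson correlations of 0.889 to 0.965, computed across cytosines of the same libraries, with a mean of 0.937 within groups and 0.936 between groups. Within 1 kb of starts the means were 0.903 and 0.902, and beyond 5 kb 0.912 and 0.910. Of the shared cytosines 99.2% lay within 50 bp of a CCGG site, where MspI cuts. The median gene had 2 shared cytosines and 448 genes had 1. Cytosines within 1 kb of the start of a noncoding gene made up 6.74% of the near and 4.31% of the far cytosines.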
